A study of Mus musculus with 16 samples.

Results

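The endoplasmic reticulum (ER) chaperone and ER-associated degradation (ERAD) genes described here are 10 genes of the unfolded protein response. They were chosen by gene symbol from the 23356 genes of each expression table, and all 10 were present. The cells were NIH3T3, an immortalized mouse fibroblast line, carrying a destabilizing domain derived from FKBP12 fused to superfolder GFP (DD-GFP). The fusion was integrated by PiggyBac transposition, cells with high GFP were sorted, and the study cultured the line with the stabilizing ligand Shield-1, so controls carried the same fusion. Libraries of 4 control samples (0 min) were compared with libraries from cells treated with bortezomib, an inhibitor of the proteasome, for 45, 135 or 405 min, with 4 replicates each. The study used bortezomib to ask how blocking the proteasome compares with the stress of an unfolded DD. No vehicle samples matched in time were analysed here, so time in culture and bortezomib cannot be told apart. Nothing in the labels says that replicates were separate cultures, and p-values then measure only the spread between these libraries.

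Secreted and membrane proteins fold in the ER with the help of chaperones, and proteins that fail are moved back to the cytosol, ubiquitinated and degraded by the proteasome. When unfolded proteins collect in the ER, the sensors Ire1, Perk and Atf6 switch on transcription of chaperone and ERAD genes, partly through the factor Xbp1. The genes fall into 4 roles. Hspa5 (BiP), Hsp90b1 (Grp94) and Hyou1 (Grp170) are chaperones of the Hsp70, Hsp90 and Hsp110 type in the ER lumen. Calr is a lectin chaperone that also binds calcium, and Pdia4 forms and rearranges disulfide bonds. Dnajb9 (ERdj4) is a J-domain partner of BiP, and Sdf2l1 is a small ER protein found with J-domain chaperones. Herpud1 is a membrane protein of the ERAD ubiquitin ligase complex and Edem1 acts on misfolded glycoproteins before they leave the ER. Xbp1 is itself a transcription factor and neither a chaperone nor an ERAD gene.

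Stretches of promoter that hold the ER stress response elements are shown because these letters are what the Atf6 and Xbp1 pathways are known to read, and the genes with a match can be set beside their levels. They were taken from RefSeq (assembly GRCm38.p6) and run 5′ to 3′ on the strand of the gene, with the matching element in capitals. Windows reached from 250 bases before to 50 bases after the transcription start, and 9 of the 10 genes had one; Hyou1 did not.
Hspa5, chr2:34771985-34772083, plus strand: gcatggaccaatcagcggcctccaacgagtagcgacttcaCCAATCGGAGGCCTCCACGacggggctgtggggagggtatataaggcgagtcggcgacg
Calr, chr8:84847035-84847133, minus strand: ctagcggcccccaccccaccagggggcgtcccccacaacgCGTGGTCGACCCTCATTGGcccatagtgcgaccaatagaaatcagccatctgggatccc
Hsp90b1, chr10:86705493-86705694, minus strand: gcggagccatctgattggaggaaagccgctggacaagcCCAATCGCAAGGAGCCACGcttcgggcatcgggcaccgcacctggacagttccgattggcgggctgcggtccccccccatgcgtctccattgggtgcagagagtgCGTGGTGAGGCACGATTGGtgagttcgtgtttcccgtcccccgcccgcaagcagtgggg
Herpud1, chr8:94386337-94386427, plus strand: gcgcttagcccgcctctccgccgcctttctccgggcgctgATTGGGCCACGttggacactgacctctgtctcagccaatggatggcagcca

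The ER stress response element (ERSE: CCAAT, 9 bases of any kind, then CCACG, searched on both strands) was found in 3 of the 9 windows, those of Hspa5, Calr and Hsp90b1. Of all 32851 mouse promoter windows of this length, 0.119% held it. In Hspa5 it lay 65 to 47 bases before the start. Hsp90b1 held it once on each strand, and in Calr it lay on the opposite strand. The ERSE-II (ATTGG, 1 base of any kind, then CCACG) was found in Herpud1 and in 0.0365% of all windows. The unfolded protein response element TGACGTGG was found in none of the 9 and in 0.676% of all windows. A CCAAT box, which is also part of both response elements, was present in 8 of the 9 and in 37.4% of all windows. Xbp1 was the gene without one. A match describes the letters only.

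The libraries differed widely, and in a way that followed the groups. Depth ran from 570323 to 19930375 fragments assigned to genes. In 7 libraries the ribosomal protein genes held 4.25% to 9.42% of fragments. They were replicates 1 and 2 of both early times (45 and 135 min) and replicates 1, 3 and 4 of 405 min. In the other 9, including all 4 controls, they held 0.398% to 1.21%. These 2 kinds of library are called ribosomal-rich and ribosomal-poor here, with the line drawn at 4%. Olfactory and vomeronasal receptor genes, which fibroblasts are not known to use, held 4.16% to 5.13% of fragments in the ribosomal-poor libraries and 0.00556% to 2.62% in the others. The summed level of 10 fibroblast markers (Col1a1, Fn1, Vim and others) was 3443 to 21598 CPM (fragments scaled to library depth) in ribosomal-rich and 267 to 1629 CPM in ribosomal-poor libraries. None of the 10 was at 0 in a ribosomal-rich library, and S100a4 and Pdgfrb were at 0 in 2 and 1 of the ribosomal-poor ones. Summed markers of epithelium, blood, muscle and neurons reached 93.1 CPM at most in the former and 193 CPM in the latter. No control was ribosomal-rich, so for any comparison with control over all libraries, bortezomib and library composition cannot be told apart. In bulk RNA, less RNA per cell and fewer cells cannot be told apart either.

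**Figure D1:**
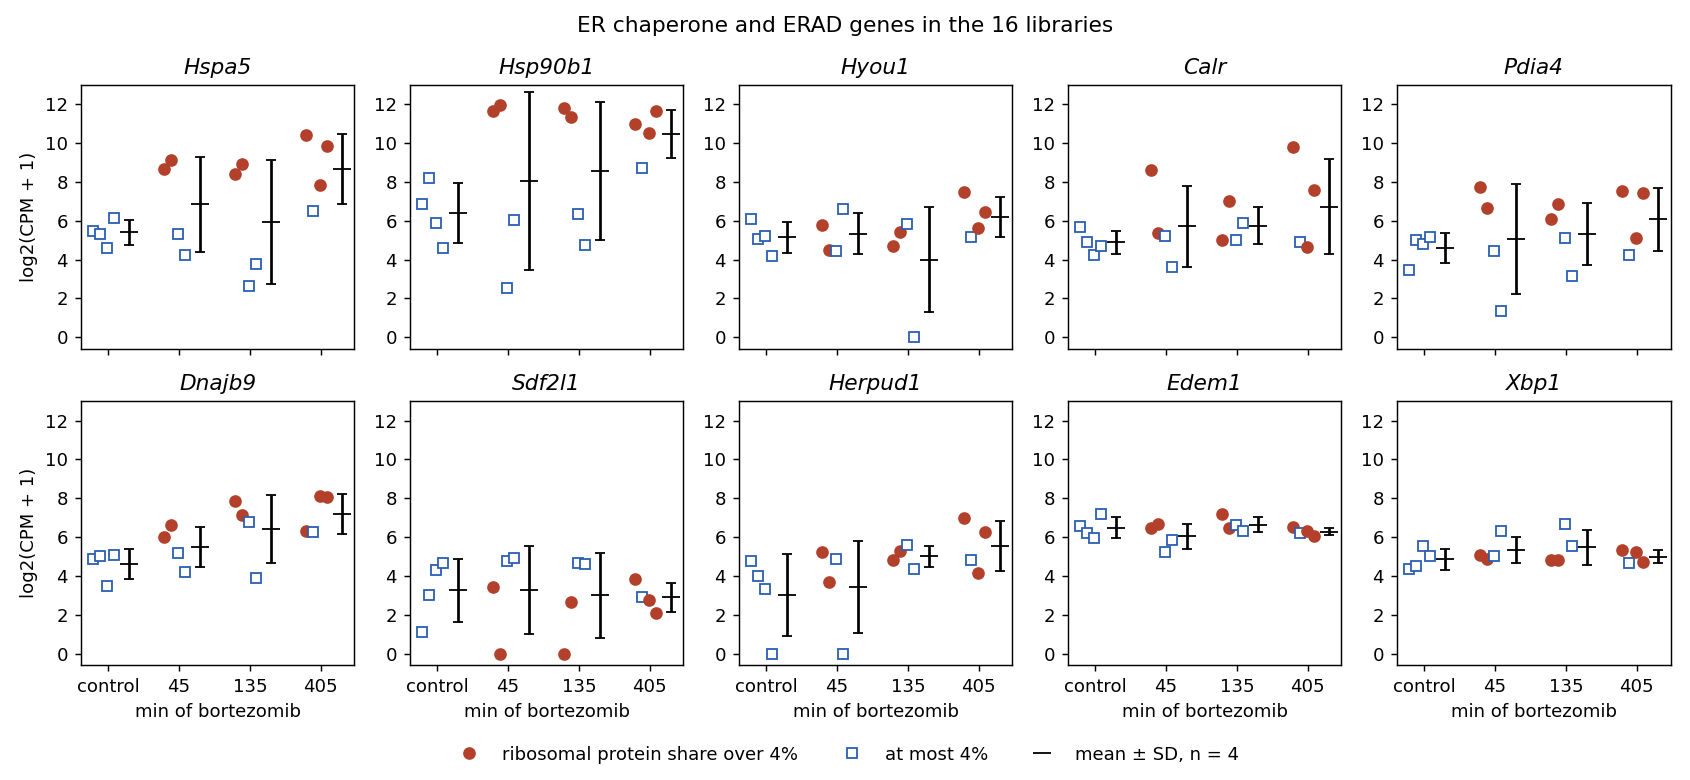
Level of each of the 10 genes as log2(CPM + 1) in each library, by minutes of bortezomib. Filled circles are libraries with a ribosomal protein share over 4%, open squares those at or below it, and bars show the mean ± SD of 4 replicates. Over all times, the library kinds are separate for Hspa5 and Hsp90b1 and overlap for every other gene.

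The sum of the 10 genes separated the library kinds. It was 281 to 802 CPM in the 9 ribosomal-poor libraries and 2223 to 5032 CPM in the 7 ribosomal-rich ones. Hsp90b1 alone supplied 40.4% to 80.4% of the fragments of the 10 genes in the ribosomal-rich libraries and 1.70% to 52.5% in the others. The ribosomal-poor library with the highest sum was 405 min replicate 2, at 802 CPM, against 309 to 578 CPM in the controls.

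**Figure D2:**
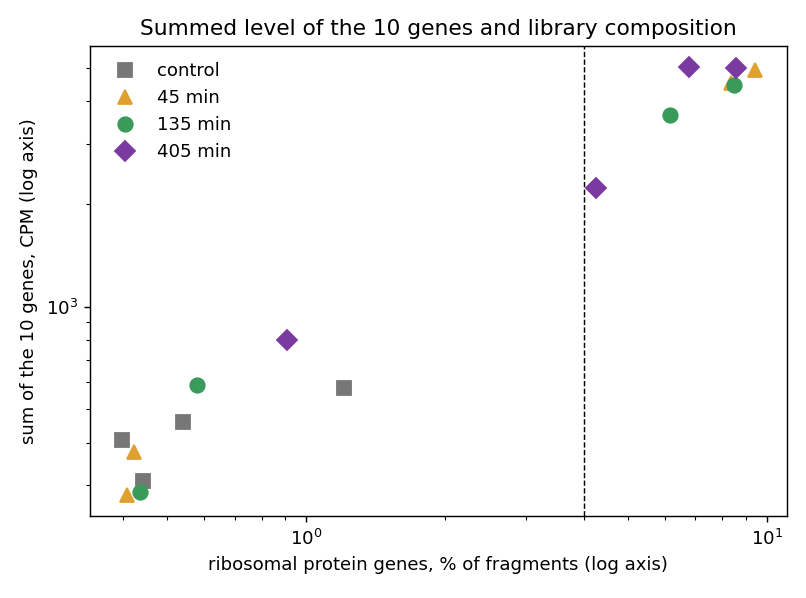
Summed level of the 10 genes in CPM against the percentage of fragments in ribosomal protein genes, both on log axes, with 1 point per library. The dashed line marks 4%. The 7 libraries to its right lie between 2223 and 5032 CPM, and the 9 to its left between 281 and 802 CPM.

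To see how far each gene stood above the receptor genes, its fragments per kilobase of exon were ranked against those of 1416 receptor genes in the same library. In ribosomal-poor libraries, 0 to 3 of the 10 genes lay above the 95th percentile of the receptor genes. The library with 3 was 405 min replicate 2, in which these were Hspa5, Hsp90b1 and Dnajb9. In ribosomal-rich libraries 3 to 10 genes lay above it. The library with 3 was 405 min replicate 3, whose ribosomal share of 4.25% was the lowest of its kind. The median percentile over the ribosomal-poor libraries ran from 31.8 for Hyou1 to 83.0 for Sdf2l1. In the 4 controls, 1 value lay above the 95th percentile, that of Hsp90b1 in replicate 2. Such ranks also depend on the receptor genes, whose share of fragments was lower in ribosomal-rich libraries. At 45 min Sdf2l1 ranked at 100 with 9.74 CPM in replicate 1 (ribosomal-rich) and at 94.3 with 26.5 CPM in replicate 3 (ribosomal-poor). The share of all genes above the 95th percentile was not computed.

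**Figure D3:**
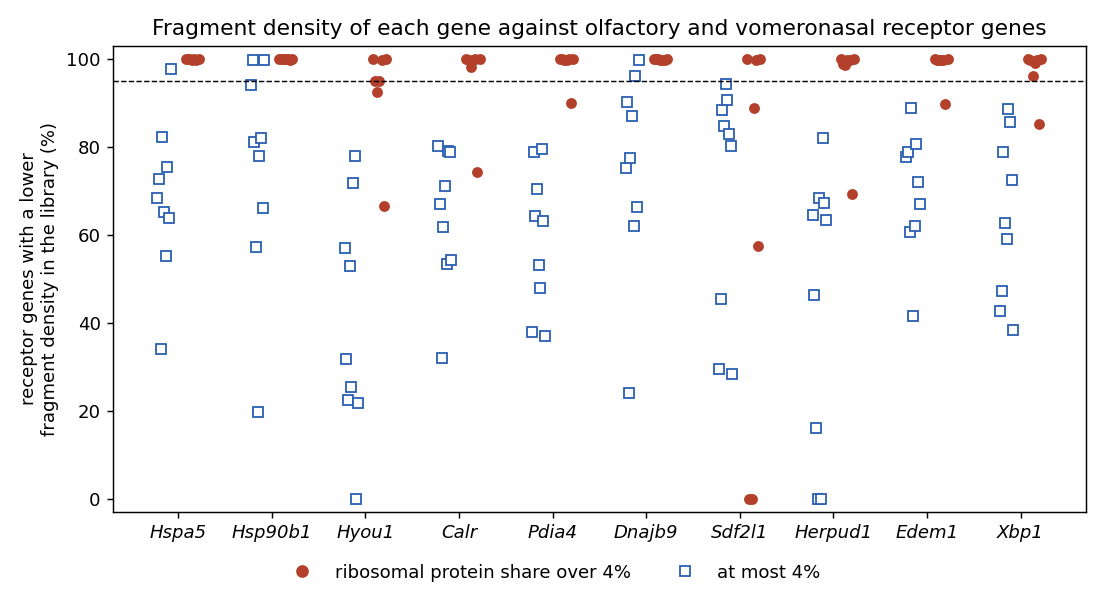
Percentage of olfactory and vomeronasal receptor genes with a lower fragment density (fragments per kilobase of exon) than each of the 10 genes, with 1 point per library. Filled circles are libraries with a ribosomal protein share over 4%, open squares the others, and the dashed line marks 95%. Hspa5, Hsp90b1 and Dnajb9 lie at or above 99.9% in all 7 libraries over 4%.

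Hspa5 (chr2:34772090-34776529, GRCm38.p6), the main Hsp70 of the ER, was measured at 44.0, 39.5, 23.6 and 70.5 CPM in control replicates 1 to 4. It was at 406, 566, 39.5 and 17.6 CPM at 45 min, and at 334, 482, 5.26 and 12.5 CPM at 135 min. At 405 min it was at 1386, 91.0, 229 and 932 CPM. Both early times split into a high pair of ribosomal-rich and a low pair of ribosomal-poor libraries, the low pair within or under the control range, whereas at 405 min even the lowest library exceeded the highest control. The values in ribosomal-poor libraries rest on 3 to 70 fragments each.

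Hsp90b1 (chr10:86690841-86705444), the ER Hsp90, was at 117, 296, 58.3 and 23.1 CPM in controls. It stood at 3243, 3977, 4.76 and 65.7 CPM at 45 min, at 3567, 2574, 80.7 and 26.1 CPM at 135 min, and at 2033, 421, 1475 and 3185 CPM at 405 min. Its ribosomal-rich libraries did not overlap the ribosomal-poor ones, with medians of 3185 and 65.7 CPM, a ratio of 48.5. Hspa5 was the other gene without overlap between library kinds, with a ratio of medians of 12.2. Of 22359 genes, 4.42% were higher in every ribosomal-rich library than in any other, and 6.22% lower. Hsp90b1, with 7 to 63486 fragments, shares exon bases with 1810014B01Rik on the opposite strand, which had 0 to 64. It also shares exon bases with AC152453.1 and Gm15344 on its own strand. Whether counting used strand is not stated in the sources used here.

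Hyou1 (chr9:44379490-44392369), which exchanges nucleotide on BiP, was at 67.8, 32.5, 35.9 and 17.3 CPM in controls. It was at 53.5, 21.8, 21.1 and 97.7 CPM at 45 min and at 25.4, 42.0, 56.1 and 0 CPM at 135 min, where the count of 0 allows up to 3.41 CPM (3 counts, counting error only). At 405 min it was at 178, 35.1, 49.1 and 86.5 CPM. Replicates 1 and 4 of 405 min, both ribosomal-rich, stood above all 4 controls, and replicates 2 and 3 lay within the control range. The ribosomal-poor replicate 4 of 45 min also stood above all 4 controls. For these libraries above the controls, the share of all genes above them was not computed.

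Calr (chr8:84842088-84846931) varied widely among libraries of 1 kind and time. It was at 50.8, 29.0, 18.0 and 25.4 CPM in controls, at 394, 40.3, 36.7 and 11.2 CPM at 45 min, at 31.1, 129, 31.6 and 59.1 CPM at 135 min, and at 905, 28.6, 23.8 and 190 CPM at 405 min. Within the ribosomal-rich libraries of 405 min the highest was 38.0 times the lowest. That lowest library was replicate 3, whose ribosomal share of 4.25% was the lowest of its kind. At 45 and 135 min, the ribosomal-rich library with the lower Calr had the higher share. These shares were 9.42% against 8.35% at 45 min and 8.48% against 6.17% at 135 min. Whether Calr followed the share was not tested. Pdia4 (chr6:47796141-47813512) was at 10.2 to 34.7 CPM in controls and at 212 and 102, 66.9 and 115, and 182, 33.2 and 169 CPM in the ribosomal-rich libraries of 45, 135 and 405 min. Its ribosomal-poor treated libraries, at 1.60 to 33.3 CPM, did not exceed the controls. Pdia4 shares exon bases with Mir704 on its own strand.

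Dnajb9 (chr12:44205897-44210068) was at 28.2, 31.3, 10.1 and 32.4 CPM in controls, at 63.4, 96.3, 35.4 and 17.6 CPM at 45 min, at 232, 141, 111 and 13.6 CPM at 135 min, and at 78.7, 76.7, 276 and 266 CPM at 405 min. All 4 libraries of 405 min lay above the controls. So did 135 min replicate 3, a ribosomal-poor library with 47.5% of genes at 0. The share of all genes above the controls in that library was not computed. Replicate 1 of 405 min, where Hspa5 was highest, held Dnajb9 at a level close to the lowest of its time. Sdf2l1 (chr16:17130138-17132383) had a lower median in ribosomal-rich than in ribosomal-poor libraries, but the 2 kinds overlapped. Over all ribosomal-poor libraries it ran from 1.13 to 28.8 CPM. It was at 1.13 to 24.3 CPM in controls and at 0 to 13.5 CPM in ribosomal-rich libraries, and its counts of 0 in 45 min replicate 2 and 135 min replicate 1 allow up to 0.491 and 0.951 CPM. The median in ribosomal-rich libraries was 0.226 times that in ribosomal-poor ones.

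Herpud1 (chr8:94386429-94395371) was at 26.0, 15.1, 8.98 and 0 CPM in controls, the last allowing up to 3.47 CPM. It was at 36.2, 11.8, 27.9 and 0 CPM at 45 min, where the 0 allows up to 4.81 CPM, at 27.3, 37.5, 47.3 and 19.3 CPM at 135 min, and at 124, 27.3, 16.6 and 76.3 CPM at 405 min. Edem1 (chr6:108824045-108859356) was at 61.7 to 147 CPM in controls, at 86.5, 101, 36.7 and 56.1 CPM at 45 min, at 145, 86.2, 98.2 and 78.3 CPM at 135 min, and at 66.1 to 91.0 CPM at 405 min. The 2 ribosomal-poor libraries of 45 min, with 54 and 35 fragments of Edem1, lay below all controls. Xbp1 (chr11:5520641-5525993) was at 19.2 to 46.0 CPM in controls, at 33.4, 28.2, 31.3 and 78.5 CPM at 45 min, at 26.9, 27.6, 102 and 45.4 CPM at 135 min, and at 24.7 to 39.5 CPM at 405 min. Replicate 4 of 45 min and replicate 3 of 135 min, both ribosomal-poor and with 49 and 58 fragments of Xbp1, lay above all controls. For Edem1 and Xbp1, the share of all genes outside the control range in the same libraries was not computed. The ratio of medians between library kinds was 1.16 for Edem1 and 0.900 for Xbp1. These tables count fragments per gene, so the splicing of Xbp1 mRNA by Ire1 was not measured.

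Against control over all 16 libraries, edgeR's quasi-likelihood test called no gene at any time at a Benjamini-Hochberg adjusted p under 0.05 (0 of 5030 genes tested, 0%), and so none of the 7 members with a count in every library. Herpud1, Sdf2l1 and Hyou1 had a 0 somewhere and were not in this test. At 405 min the fitted log2 fold changes were 4.18 (SE 1.46) for Hspa5, 4.16 (SE 1.84) for Hsp90b1, 3.48 (SE 1.21) for Calr, 3.03 (SE 0.855) for Dnajb9 and 2.29 (SE 1.09) for Pdia4. Without 405 min replicate 1, Calr came to 1.77. Xbp1 stood at 0.32 (SE 0.530) and Edem1 at -0.08 (SE 0.513). The members' median was 3.03, and the median of all genes tested was 0.04. The smallest edgeR adjusted p at 405 min was 0.303, for Dnajb9, Calr and Hspa5 among others. At an unadjusted p under 0.05, 5 of the 7 were higher, where 13.6% of all genes tested were (685 genes) and 1.53% were lower (77 genes). DESeq2, the alternative tool, called 352 genes at 405 min (7% of the 5030 entered), of which 351 were higher (6.98%). It gave no adjusted p for 2341 of the 5030, Xbp1 among them, so the share called among the rest was larger. The genes called included 4 members: Dnajb9 (log2 fold change 2.998, adjusted p = 0.00986 with DESeq2), Hspa5 (4.13, 0.0149), Calr (3.40, 0.0157) and Hsp90b1 (4.13, 0.0410). The call at 405 min thus depended on the tool.

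At 45 min the fitted log2 fold change was 4.26 (SE 1.84) for Hsp90b1, 2.89 (SE 1.38) for Hspa5, 2.24 (SE 1.15) for Calr, 2.04 (SE 1.08) for Pdia4 and 1.36 (SE 0.811) for Dnajb9, with smallest edgeR adjusted p = 0.409. At an unadjusted p under 0.05, 2 of the 7 were higher (Hsp90b1 and Hspa5), beside 11.4% of all genes (572 higher, 41 lower). DESeq2 called 224 genes (4.45%), including Hsp90b1 (4.33, adjusted p = 0.0418). It gave 2731 genes no adjusted p, Xbp1 among them. At 135 min the values were 3.94 (SE 1.82) for Hsp90b1, 2.49 (SE 0.838) for Dnajb9, 2.45 (SE 1.35) for Hspa5, 1.30 (SE 1.06) for Pdia4 and 1.14 (SE 1.12) for Calr, with smallest edgeR adjusted p = 0.524. Here 2 of the 7 were higher at an unadjusted p under 0.05 (Dnajb9 and Hsp90b1), beside 7.59% of all genes (382 higher, 68 lower). DESeq2 called 8 genes (0.159%) and no member at that time, and gave 3316 genes no adjusted p, Pdia4 and Xbp1 among them. All 3 comparisons share the 4 controls. Between treated times over all libraries, edgeR called 0 of 5030 genes, and no member reached an unadjusted p under 0.05. That level was reached upward by 34 genes (0.676%) and downward by 26 (0.517%) for 135 against 45 min, and by 90 (1.79%) and 72 (1.43%) for 405 against 135 min. DESeq2 called 0 in both.

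Entering the log2 ribosomal protein share of each library as a covariate changed these values. At 405 min Hspa5 came to 0.20 (SE 0.740) and Hsp90b1 to 0.25 (SE 0.690) on the log2 scale, and Pdia4 turned to -0.57 (SE 0.785). Dnajb9, which 3 members exceeded without the covariate, was the highest of the 7 with it, at 1.55 (SE 0.659; edgeR unadjusted p = 0.0293, adjusted p = 1), followed by Calr at 1.27 (SE 1.14). With no adjustment, p was under 0.05 in this fit at 405 min for 68 of 5030 genes upward and 60 downward. Xbp1 was at 0.75 (SE 0.611) and Edem1 at -0.73 (SE 0.477). At 45 and 135 min Hspa5 turned to -0.57 and -1.33, and Hsp90b1 to -0.44 and -0.36. Dnajb9 was at 0.19 and 1.28 at these times, and Xbp1 at 0.90 and 0.99.

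All 10 genes entered an exact permutation test of the mean log2(CPM + 1), 4 libraries against 4, whose smallest possible p is 0.0286. The treated libraries of 405 min did not overlap the controls for 3 members, Hspa5, Hsp90b1 and Dnajb9, which were higher. Of 22359 genes, 2.68% were separated upward in this way and 7.42% downward. The differences of these 3 members were 3.27, 4.07 and 2.59, each with a 2-sided exact permutation p = 0.0286 and an adjusted p = 0.283. At an unadjusted p under 0.05 stood 10.1% of genes, in either direction, and no gene passed after adjustment. Herpud1 differed by 2.53 (exact permutation p = 0.0571, adjusted p = 0.288), Hyou1 by 1.05 (exact permutation p = 0.171, adjusted p = 0.383) and Sdf2l1 by -0.37 (exact permutation p = 0.686, adjusted p = 0.820). No member lay above or below all controls at 45 or 135 min. Of all genes, 0.698% and 0.729% lay above at these times, and 4.36% and 8.85% lay below.

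Among ribosomal-poor libraries, bortezomib could be set against control at a like ribosomal share at 45 and 135 min, with 2 treated libraries each. These libraries still differed in the share of genes at 0. It was 11.9% and 25.6% in those of 45 min, 47.5% and 32.8% in those of 135 min, and 6.71% to 27.7% in controls. edgeR called 0 of 8366 genes (0%) in both comparisons. With no adjustment, p was under 0.05 for 51 genes upward (0.61%) and 168 downward (2.01%) at 45 min, and for 360 (4.3%) and 506 (6.05%) at 135 min. DESeq2 called 0 genes at 45 min and 123 at 135 min (1.47%), none of them a member. Of the 8 members tested at 135 min, 4 had a positive log2 fold change (51.8% of all genes tested did). Their median was 0.13 beside 0.03 over all genes. Hspa5 was at -2.34 (SE 0.799; edgeR unadjusted p = 0.0103, adjusted p = 0.348), the 1 member under 0.05 with no adjustment. Its 2 libraries rest on 3 and 11 fragments. Hsp90b1 was at -1.41 (SE 0.935), Xbp1 at 1.15 (SE 0.627) and Dnajb9 at 1.06 (SE 0.760). At 45 min Hsp90b1 was at -1.92 (SE 0.974), Edem1 at -1.03 (SE 0.507) and Hspa5 at -0.61 (SE 0.696), each with edgeR adjusted p = 0.9999. Leaving out 1 library moved Hsp90b1 between -4.65 (without 45 min replicate 4) and -0.93 (without 45 min replicate 3), and Hspa5 between -1.33 (without 45 min replicate 3) and -0.15 (without 45 min replicate 4).

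The only ribosomal-poor library at 405 min, replicate 2, allowed no test. In it, 4 of the 10 genes exceeded all 4 controls, where 16.4% of 22359 genes did. Dnajb9 was at 76.7 CPM against a highest control of 32.4 CPM, Hsp90b1 at 421 against 296 CPM, Hspa5 at 91.0 against 70.5 CPM and Herpud1 at 27.3 against 26.0 CPM. The other 6 lay within the control range. Relative to the mean of the controls, Hsp90b1 was 3.40 times and Dnajb9 3.005 times as high.

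**Figure D4:**
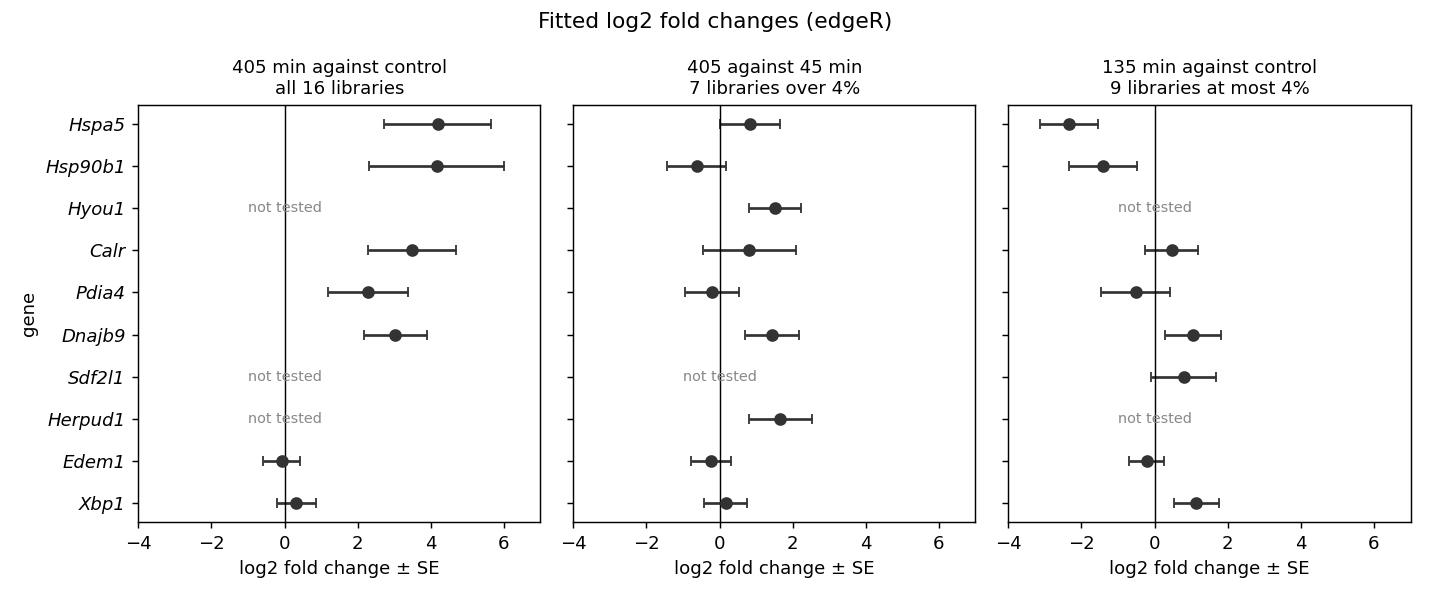
Fitted log2 fold changes ± SE (edgeR) for 405 min against control in all 16 libraries, 405 against 45 min in the 7 libraries with a ribosomal protein share over 4%, and 135 min against control in the 9 libraries at or below 4%. Hspa5 is at 4.18, 0.83 and -2.34 in the 3 panels, and no gene passes an adjusted p under 0.05 in any.

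The course could also be read within the 7 ribosomal-rich libraries, which hold treated samples only (2 at 45 min, 2 at 135 min, 3 at 405 min). Here 9 members had a count in every library and Sdf2l1 did not. edgeR called 0 of 8605 genes (0%) in each of the 3 comparisons of times. With no adjustment, p was under 0.05 for 283 genes upward (3.29%) and 327 downward (3.8%) for 405 against 45 min, for 152 (1.77%) and 143 (1.66%) for 405 against 135 min, and for 106 (1.23%) and 36 (0.418%) for 135 against 45 min. DESeq2 called 62 genes (0.721%; 41 higher, 0.476%), 0 and 3 (0.0349%) in these comparisons, with no member among them.

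From 45 to 405 min the largest fitted values were those of Herpud1 at 1.66 (SE 0.855), Hyou1 at 1.52 (SE 0.701) and Dnajb9 at 1.43 (SE 0.747), all on the log2 scale, with edgeR adjusted p of 0.685 to 0.686. Hspa5 was at 0.83 (SE 0.811), Calr at 0.81 (SE 1.27), Xbp1 at 0.17 (SE 0.594), Pdia4 at -0.21 (SE 0.738), Edem1 at -0.24 (SE 0.554) and Hsp90b1 at -0.63 (SE 0.812). Of the 9, 6 were positive (57.2% of all genes tested were), with a median of 0.81 beside 0.18 over all genes. The 3 libraries of 405 min lay below both of 45 min for Hsp90b1, where 6.76% of 22279 genes lay below. From 135 to 405 min, Hyou1 was at 1.81 (SE 0.714; edgeR unadjusted p = 0.0287, adjusted p = 0.882), beside 1.77% of genes higher at that level, and its libraries did not overlap, where 2.56% of genes lay above. Calr was at 2.43 (SE 1.37) and Hspa5 at 1.24 (SE 0.824) in the same comparison. From 45 to 135 min Dnajb9 was at 1.15 (SE 0.788). Both its libraries at 135 min lay above both at 45 min (18.5% of genes did), while those of Xbp1 lay below (5.82% of genes did).

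Within these 7 libraries the levels per kilobase of exon were ordered as Hsp90b1, Hspa5, Dnajb9, Pdia4, Calr, Herpud1, Edem1, Xbp1, Hyou1 and Sdf2l1, with medians of 790, 137, 75.6, 46.4, 44.9, 15.5, 14.8, 8.67, 6.79 and 4.87 CPM per kilobase. The ranges of all neighbours in this order overlapped across libraries, although Hsp90b1 was above Hspa5 in each of the 7. Hspa5 at 405 min ranged from 229 to 1386 CPM, a 6.05-fold spread over 3 libraries. The spread was 1.39-fold at 45 min and 1.44-fold at 135 min, over 2 libraries each. The lowest library of 405 min was replicate 3, with the lowest ribosomal share (4.25%) and depth (1385229 fragments) of the 7. Replicates 1 and 4 were at 1386 and 932 CPM.

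The 5 genes outside the list whose log2(CPM + 1) followed Hspa5 most closely over the 7 ribosomal-rich libraries were Nqo1 (Pearson r = 0.978), Atp2a2 (0.976), Ddx42 (0.959), Ptgr1 (0.955) and Rad23b (0.954), out of 7835 compared. Sdf2l1 had a 0 in some of these libraries and was not compared. Among the other members r was 0.776 for Herpud1, 0.750 for Calr, 0.741 for Pdia4 and 0.688 for Hyou1. It was 0.14 for Hsp90b1, 0.04 for Xbp1, -0.27 for Edem1 and -0.36 for Dnajb9. By r, Herpud1, Calr, Pdia4 and Hyou1 ranked 395, 546, 594 and 845 of the 7835. These are descriptions across 7 libraries that differed in depth (1385229 to 19930375 fragments) and in ribosomal share (4.25% to 9.42%). Whether the correlations follow depth or composition was not tested.

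Of 71 further genes of ER protein handling, edgeR tested 38 over all libraries and called none at any time. Their fitted values against control at 405 min were above 0 for 31 (51.3% of all genes tested were). The median was 1.17 beside 0.04 over all genes, and 13 were higher at an unadjusted p under 0.05 (13.6% of all genes were). Of 20 ER folding genes, 10 were tested and 6 were higher at that level. The lectin chaperone Canx was at 3.85 (SE 1.37), the disulfide isomerases Pdia3 at 4.30 (SE 1.54) and P4hb at 3.85 (SE 1.29). Of 20 ERAD genes, 12 were tested and 3 were higher, with a median of 0.52. The p97-binding Ubxn4 was at 2.66 (SE 0.990), and Selk had a 0 in some library. Of 15 sensors and transcription factors, 7 were tested and 1 was higher, Atf4 at 3.21 (SE 1.21), the factor translated when eIF2α is phosphorylated. The ER stress sensor Atf6 was at 0.86 (SE 0.564). Of 16 translocon and signal peptide genes, 9 were tested and 3 were higher, among them Sec62 at 1.60 (SE 0.684). Ssr3, of the complex beside the translocon, was at 3.16 (SE 1.58), and Sec61g, a subunit of the channel, had a 0 in some library. DESeq2 called 8 of the 38, all higher: Canx, Dnajc3, Ero1l, P4hb and Pdia3 of the folding genes, Ubxn4, Atf4 and Ssr2. Within the ribosomal-rich libraries, 27 of 58 tested were positive for 405 against 45 min (57.2% of all genes tested were). Their median was -0.06 beside 0.18 over all genes. There Canx was at 0.37 (SE 0.758), Pdia3 at -0.28 (SE 0.770), Ubxn4 at 1.15 (SE 0.626), Selk at -1.19 (SE 0.645) and Sec61g at -1.26 (SE 1.05), while Ddit3 (CHOP), a factor induced downstream of Atf4, was at 1.92 (SE 1.16; edgeR adjusted p = 0.694). DESeq2 called 1 of the 58 there, Ppp1r15a, the eIF2α phosphatase subunit.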

How the data were processed

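RNA was measured by RNA-seq in 16 libraries. Per the labels, it was extracted with RNeasy and made into libraries with a NuGEN Encore Complete kit; the study's methods also describe poly(A) selection. The authors deposited 1 table per library of estimated counts (raw fragments per gene, columns of a Cuffdiff read-group table), with scaled fragments and FPKM not used here. Reads were mapped to mm9 per the methods and mm10 per the submitters' processing notes; aligner and versions are not given in the sources used here. Per library, 97.9% to 99.4% of values were exactly whole, and all were rounded. For 45 min replicate 1, symbols that had become dates (27 genes) were restored from the shared row order. No library duplicated another in 120 pairwise comparisons.

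CPM were taken over all fragments assigned to genes. Groups were compared by quasi-likelihood in edgeR 4.0.16 under R 4.3.3, after TMM scaling, on genes with at least 1 count in every library, in 1 fit each for all 16 libraries (12 residual degrees of freedom), for the 7 with a ribosomal protein share over 4% (4) and for the other 9 (5), with Benjamini-Hochberg adjustment over all genes tested and a threshold of 0.05. Exact permutation tests (2-sided, 70 splits) compared mean log2(CPM + 1), pseudocount 1, over 22359 genes. Tests were checked on simulated data, with changes of 4-fold for edgeR. It called nearly all changed genes at a small spread between replicates, and few or none at a spread as large as the one estimated here. Larger changes and a split of libraries by composition were not simulated for edgeR. Alternatives were DESeq2 1.42.0, RLE factors, no TMM, 2 other filters, fits of 2 groups, a replicate block, the ribosomal share as a covariate, other share thresholds, and leaving out each library; for the permutation test, pseudocount 5 and TMM-scaled CPM. Exon lengths came from GENCODE M1 (90.8% of symbols matched), and positions and promoters from RefSeq GRCm38.p6. Depth of 570323 to 19930375 fragments limits low genes; limits for counts of 0 cover counting error only.

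The named genes are all 10 members, the 3 genes of each further list with the highest mean CPM in ribosomal-rich libraries, any list gene passing a test where 5 or fewer did, and the 5 genes most like Hspa5. A gene that this rule names is not reported here. Members and lists were chosen with earlier results of these data known. Deviations from the group means of same-numbered libraries correlated at 0.475 to 0.527 between 45 and 135 min, where ribosomal share also went by number, at -0.0102 to 0.389 between control and these times, and at -0.757 to 0.584 between 405 min and the others; the pairing comes from the data, not the labels, and the main fits hold no block.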

Additional observations from a re-analysis of the deposited data

Results flagged for a closer look

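In 2 of 52 groups of 4 libraries, a library stood far from the other 3 by Dixon's test; at 1 in 20, chance gives 2.6 such groups. Xbp1 at 45 min was at 6.31 on the log2(CPM + 1) scale in replicate 4, a ribosomal-poor library, where the other 3 were at 4.87 to 5.10. Dnajb9 in control replicate 3 was at 3.47, where the other 3 controls were at 4.87 to 5.06. The cause was not tested.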

How the results depend on the processing

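Of 220 alternative values of the 35 named fold changes and differences, 203 kept their sign and side of the threshold, 12 reversed and 5 passed the threshold, all 5 with DESeq2. With the ribosomal share as a covariate, Pdia4 turned to -0.57 at 405 min, -0.53 at 45 min and -0.70 at 135 min against control, Hspa5 to -0.57 (45 min) and -1.33 (135 min), and Hsp90b1 to -0.44 and -0.36. Edem1 at 405 min turned to 0.78 with filterByExpr, 0.85 with no filter and 0.37 with only the 2 groups fitted. For 405 against 45 min in ribosomal-rich libraries, Xbp1 turned to -0.067 with no filter and Pdia4 to 0.23 at a share threshold of 6%. The cause was not tested.

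Leaving out 1 library reversed 7 of 232 values and called no member. The ranges were -0.24 to 0.17 for Edem1 at 405 min, -0.64 to 0.37 for Pdia4 and -0.80 to 3.16 for Calr from 45 to 405 min, and -1.09 to 0.10 for Sdf2l1 at 405 min in the permutation test.

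Genes called by edgeR went from 0 to 352 (405 min), 224 (45 min) and 8 (135 min) against control with DESeq2, of which 4, 1 and 0 were members. In ribosomal-rich libraries DESeq2 called 62 (405 against 45 min) and 3 (135 against 45 min), and in ribosomal-poor ones 123 (135 min). With no filter edgeR called 1 gene at 405 min, 2 for 405 against 135 min, 16, 8 and 3 in ribosomal-rich libraries (405 against 45, 405 against 135, 135 against 45 min) and 27 in ribosomal-poor ones at 135 min; with filterByExpr, 1 at 405 min and 1 for 405 against 135 min. In ribosomal-poor libraries at 135 min, leaving out 1 library gave 0 to 468 genes, with 100 without 135 min replicate 3 and 468 without replicate 4. Without TMM the median of all genes at 405 min moved from 0.04 to -0.16 and that of members from 3.03 to 2.77.

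With the replicate number as a block, edgeR called 0 genes in all 5 comparisons of all libraries, and with no adjustment p was under 0.05 for 746 genes upward and 73 downward at 405 min. It changed no call. The check of pairing held for 45 against 135 min alone: between other groups, not every same-numbered correlation was over 0.1.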
